A study of Mus musculus with 26 samples.

Results

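C/EBPalpha and C/EBPbeta binding was set side by side in mouse liver 16 h after partial hepatectomy, by ChIP-seq, in which DNA pulled down with an antibody is sequenced to find where that protein sat. The series followed regeneration in male C57BL6/J mice of 7 weeks after 3 of 5 liver lobes were removed, with 26 samples and 8 times from 0 to 168 h, and the removed tissue gave the 0 h samples. The groups were C/EBPalpha at 16 h and C/EBPbeta at 16 h, with both factors at the other 7 times, RNA polymerase II (Pol II) at 16 h and 0 h, and Egr1 at 36 h beside them. All mice were operated on, none carried an altered allele per the labels, and each antibody and time had 1 sample from 5 mice whose pooling is not stated, so no value has a replicate error. The 16 h C/EBPalpha list held 28009 regions and the C/EBPbeta list 28720, each region with a position in the mouse build mm9 and a score that was scaled within its list. Both were cut to the 20061 regions with the highest score, the length of the shortest C/EBP list, which gave 40122 regions of the 489556 in all 16 lists. The last regions kept had a score of 10 in both lists. Of the regions with that score, 68 of 1084 were kept for C/EBPalpha and 594 of 1206 for C/EBPbeta, in order of chromosome. Gene starts were taken from the Pol II rows, moved back 500 bp by strand. A region was shared when the centre of a region of the other factor lay within 100 bp, and alone otherwise.

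C/EBPalpha and C/EBPbeta are basic leucine zipper proteins that bind as homodimers or as heterodimers with each other, and they recognise the same DNA element, a pair of half-sites around the letters GCAA. In adult hepatocytes C/EBPalpha is known for keeping metabolic genes active and for restraining the cell cycle. C/EBPbeta is known as a factor of the acute phase response to inflammation that is induced after hepatectomy. The lists therefore show how far these related proteins were found at the same places at one time of regeneration.

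The promoters below belong to genes with a 16 h region 250 bp before to 50 bp after the start, taken by score from the genes named here. The sequences are from RefSeq, build GRCm38.p6, each running 5′ to 3′ from 250 bases before the gene start to 50 after. Capitals mark each match on either strand to TTNNGCAA, TTNNGTAA, TGNNGCAA or TGNNGTAA, 4 common forms of the C/EBP element in which N is any base. The first shows both factors' strongest unshared regions in 1 promoter.
Hjurp, GRCm38.p6 chr1:88277530-88277829, minus strand: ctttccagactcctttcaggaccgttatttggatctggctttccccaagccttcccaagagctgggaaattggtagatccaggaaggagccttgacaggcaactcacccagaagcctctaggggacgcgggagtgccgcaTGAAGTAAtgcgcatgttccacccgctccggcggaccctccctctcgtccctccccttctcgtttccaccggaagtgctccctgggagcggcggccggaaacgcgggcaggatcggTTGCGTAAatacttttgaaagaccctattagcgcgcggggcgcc
The next pair had regions of C/EBPalpha alone in this window, and the one after them a region of C/EBPbeta alone.
Cebpg, GRCm38.p6 chr7:35056517-35056816, minus strand: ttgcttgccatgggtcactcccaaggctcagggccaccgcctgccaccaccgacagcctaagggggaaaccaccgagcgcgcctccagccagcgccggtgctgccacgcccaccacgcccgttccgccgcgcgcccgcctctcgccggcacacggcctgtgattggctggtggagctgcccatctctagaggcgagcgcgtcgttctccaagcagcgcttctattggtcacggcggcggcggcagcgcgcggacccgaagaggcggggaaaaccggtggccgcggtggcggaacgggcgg
F10, GRCm38.p6 chr8:13037058-13037357, plus strand: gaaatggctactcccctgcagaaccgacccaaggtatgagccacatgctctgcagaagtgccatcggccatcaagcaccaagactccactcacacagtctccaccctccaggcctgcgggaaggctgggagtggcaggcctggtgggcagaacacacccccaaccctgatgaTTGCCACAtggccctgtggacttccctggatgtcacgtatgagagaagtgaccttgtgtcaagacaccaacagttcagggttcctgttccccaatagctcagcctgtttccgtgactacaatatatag
C3, GRCm38.p6 chr17:57228087-57228386, minus strand: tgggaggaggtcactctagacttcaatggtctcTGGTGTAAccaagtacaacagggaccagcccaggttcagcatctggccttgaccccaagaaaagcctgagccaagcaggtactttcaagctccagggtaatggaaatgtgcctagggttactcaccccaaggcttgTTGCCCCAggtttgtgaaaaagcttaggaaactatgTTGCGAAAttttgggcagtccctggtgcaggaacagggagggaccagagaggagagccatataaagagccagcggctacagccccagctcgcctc
The last 3 had shared regions.
Herpud1, GRCm38.p6 chr8:94386179-94386478, plus strand: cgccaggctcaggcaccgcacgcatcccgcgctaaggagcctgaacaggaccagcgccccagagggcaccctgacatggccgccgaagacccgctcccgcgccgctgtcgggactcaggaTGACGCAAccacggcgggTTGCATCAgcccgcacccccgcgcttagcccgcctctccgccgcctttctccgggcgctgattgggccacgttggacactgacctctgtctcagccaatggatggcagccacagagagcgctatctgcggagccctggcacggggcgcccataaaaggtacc
Lrg1, GRCm38.p6 chr17:56121897-56122196, minus strand: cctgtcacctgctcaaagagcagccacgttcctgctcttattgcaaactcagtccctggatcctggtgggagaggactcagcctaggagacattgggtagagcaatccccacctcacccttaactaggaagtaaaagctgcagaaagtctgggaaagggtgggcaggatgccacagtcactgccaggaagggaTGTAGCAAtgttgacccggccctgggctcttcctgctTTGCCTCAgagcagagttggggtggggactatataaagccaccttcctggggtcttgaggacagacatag
Fga, GRCm38.p6 chr3:83025903-83026202, plus strand: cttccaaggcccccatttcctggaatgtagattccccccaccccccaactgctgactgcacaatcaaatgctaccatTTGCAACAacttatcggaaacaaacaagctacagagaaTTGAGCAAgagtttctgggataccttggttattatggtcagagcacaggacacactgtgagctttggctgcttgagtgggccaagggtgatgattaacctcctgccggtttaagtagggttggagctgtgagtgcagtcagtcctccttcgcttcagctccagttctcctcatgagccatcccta
In the Hjurp promoter the matches are centred at positions -106 and 9 from the RefSeq start. The C/EBPbeta region was centred 106 bp upstream of the start in the Pol II files and the C/EBPalpha region 3 bp upstream. In Lrg1 the nearest match lay 5 bp from the centre of the shared region and in Fga 16 bp. In F10 it lay 37 bp from the C/EBPalpha region, in C3 54 bp from the C/EBPbeta region and in Herpud1 95 bp from the shared region. The Cebpg window holds no match. Neither does that of Cenpa, the next C/EBPbeta alone promoter by score, which is not printed here. These distances take the RefSeq start and the start in the files to be the same base, which was not checked across builds.

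Most regions of the factors coincided. Of the 20061 C/EBPalpha regions, 15480 were met by C/EBPbeta, 77.2% (95% Wilson interval 76.6% to 77.7%, which covers counting error only). Each shared C/EBPalpha region had its own C/EBPbeta partner, so 4581 regions were C/EBPalpha alone and 4581 were C/EBPbeta alone. The centres of a pair lay a median of 10 bp apart, 78.6% of pairs within 25 bp and 9.75% more than 50 bp apart. The share depended on that distance, with 69.6% met within 50 bp and 61.7% overlapping by 1 bp or more. Ranks in both lists went together over the 15480 pairs (Spearman's rho 0.81, a description across regions of 1 library per factor). Whether both libraries came from the same livers is not stated.

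Sharing depended on rank. Of the 1000 top regions of C/EBPalpha 99.2% were shared, and of the 1000 top regions of C/EBPbeta 98.9%. Among ranks 10001 to 12000 the shares were 78.35% and 79.45%. Among ranks 18001 to 20000 they were 42.1% (Wilson interval 40.0% to 44.3%) for C/EBPalpha and 40.4% (38.3% to 42.6%) for C/EBPbeta. Up to rank 20000 the factors differed by less than 2 percentage points in every bin. Of the 4581 alone regions, 4034 of C/EBPalpha and 4038 of C/EBPbeta ranked below 10000. Their median score was 15 for C/EBPalpha alone and 13 for C/EBPbeta alone, against 30 for the C/EBPalpha score of shared regions and 26 for their C/EBPbeta score.

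**Figure D1:**
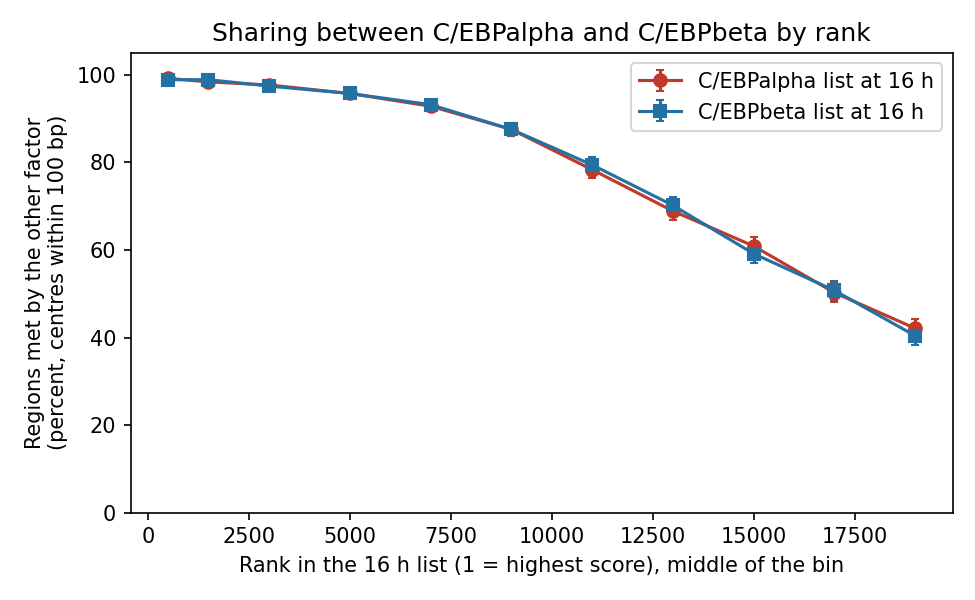
Share of regions met by the other factor at 16 h (y axis, percent, centres within 100 bp) against rank in the list (x axis, bin middles), with 95% Wilson intervals, C/EBPalpha as red circles and C/EBPbeta as blue squares. Both factors start near 99% and end near 40% at ranks 18001 to 20000.

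The strongest shared regions had partners 5 to 10 bp away and mostly recurred at every time. The top region of C/EBPalpha, at chr4:63005471-63005496 with a score of 1000, lay 117 bp upstream of Orm1 (the acute phase protein orosomucoid) and was met in all 7 other C/EBPalpha lists and all 7 other C/EBPbeta lists. A region at chr8:96910167-96910192 scored 916 for C/EBPalpha and 425 for C/EBPbeta and lay 221 bp from the start of Herpud1, whose product takes part in degrading proteins of the endoplasmic reticulum. It was met in 6 C/EBPalpha and 7 C/EBPbeta lists. A region 286 bp from the start of Chac1, a glutathione-degrading enzyme induced by endoplasmic reticulum stress, scored 535 and 394. Another 4 lay inside measured genes, with the start of Aco1 (cytosolic aconitase), Nt5c2 (a nucleotidase), Cyp2j5 (a cytochrome P450) or Noc4l as the nearest. Those 4 and the Chac1 region were met in all 14 other lists. The first by mean rank stood apart, at chr2:22444276-22444301, 878 bp past the start of RP23-407K8.3, with scores of 978 and 1000. It was met in only 2 C/EBPalpha and 3 C/EBPbeta lists of other times, and Pol II over that gene lay at -31.3 signal units per bp at 16 h and -34.6 at 0 h. Exons and introns were not told apart here.

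The alone regions were next sorted by the nearest region of the other factor in its full list, below the score limit included. For C/EBPalpha alone, 38.4% of the 4581 had a C/EBPbeta region within 100 bp that was left out by the limit. Another 22.2% had one 101 to 1000 bp away and 39.4%, 1803 regions, had none within 1000 bp. For C/EBPbeta alone the shares were 39.8%, 24.0% and 36.2%, the last 1658 regions. The alone regions with no partner within 1000 bp were weak, with a median score of 14 for C/EBPalpha and 13 for C/EBPbeta. Their highest scores were 74 and 49, at ranks 2423 and 3323.

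The alone regions with the highest scores were of another kind, side by side with a region of the other factor just past the limit of 100 bp. The first of both factors lay at the start of Hjurp, which encodes the chaperone that loads the centromeric histone. There C/EBPalpha had a region at chr1:90174086-90174111 with a score of 443, and C/EBPbeta one at chr1:90174189-90174214 with a score of 374, with 103 bp between the centres. The first position was met in 4 C/EBPalpha and 7 C/EBPbeta lists of other times, and the second in all 7 of each. A region between them can meet both, since a position counts as met within 100 bp. At Hal, which encodes the histidine-degrading enzyme histidase, the C/EBPalpha region 515 bp upstream scored 141 and the C/EBPbeta region 356 bp upstream scored 126. Upstream of 2310035K24Rik the centres were 101 bp apart, with scores of 221 and 136. Further such pairs lay 187857 bp (C/EBPalpha) and 187960 bp (C/EBPbeta) from the start of Id2, and near D330028D13Rik. Also among the 8 highest C/EBPalpha alone regions were those nearest to Xdh and Dkk3, with a C/EBPbeta region 165 and 123 bp away. Among the 8 highest C/EBPbeta alone regions were those nearest to Ccrl1 and Srd5a1, with a C/EBPalpha region 113 and 384 bp away.

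Regions with no partner within 1000 bp gave other genes. The highest of C/EBPalpha lay 55 bp from the start of Rnf166, an E3 ubiquitin ligase gene, at chr8:125000007-125000032 with a score of 74. It was met in none of the other C/EBPalpha lists and 1 C/EBPbeta list. C/EBPalpha regions 84 bp from the start of Pcif1, an mRNA cap methyltransferase gene, and 136 bp from that of Vps4b, an endosomal ATPase gene, scored 49 and 45 and were met in none of the other C/EBPalpha lists and in 1 and 3 C/EBPbeta lists. The highest of C/EBPbeta lay at chr4:144857605-144857625 inside a measured gene, 20842 bp from the start of Tnfrsf1b, a tumour necrosis factor receptor gene, with a score of 49. None of the 8 highest such C/EBPbeta regions lay within 1 kb of a gene start, against 3 of the 8 of C/EBPalpha. Over all such regions the shares were closer, 8.20% of 1658 for C/EBPbeta and 11.8% of 1803 for C/EBPalpha.

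C/EBPalpha alone regions lay at gene starts more often than C/EBPbeta alone regions. The centre was within 1 kb of a start for 589 of 4581 C/EBPalpha alone regions, 12.9% (Wilson interval 11.9% to 13.9%), and for 443 of 4581 C/EBPbeta alone regions, 9.67% (8.85% to 10.6%). Shared regions gave 12.7%. The difference between the alone classes, 3.19 percentage points (1.89 to 4.48, counting error only), arose close to the start. In the window from 250 bp upstream to 50 bp downstream lay 5.26% of C/EBPalpha alone, 3.14% of C/EBPbeta alone and 5.56% of shared regions. From 1 to 10 kb the shares were 20.3%, 22.1% and 22.3%. The median distance to a start was 23.1 kb for C/EBPalpha alone, 23.0 kb for C/EBPbeta alone and 21.1 kb for shared regions, and 39.3%, 37.7% and 38.2% lay in gene bodies. Among regions ranked below 10000 the promoter shares were 12.7%, 9.61% and 12.01%, so the order held at like scores. With gene rows not moved back the difference was 3.89 points. With no replicate at 16 h, no test of this difference is possible within that time.

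**Figure D2:**
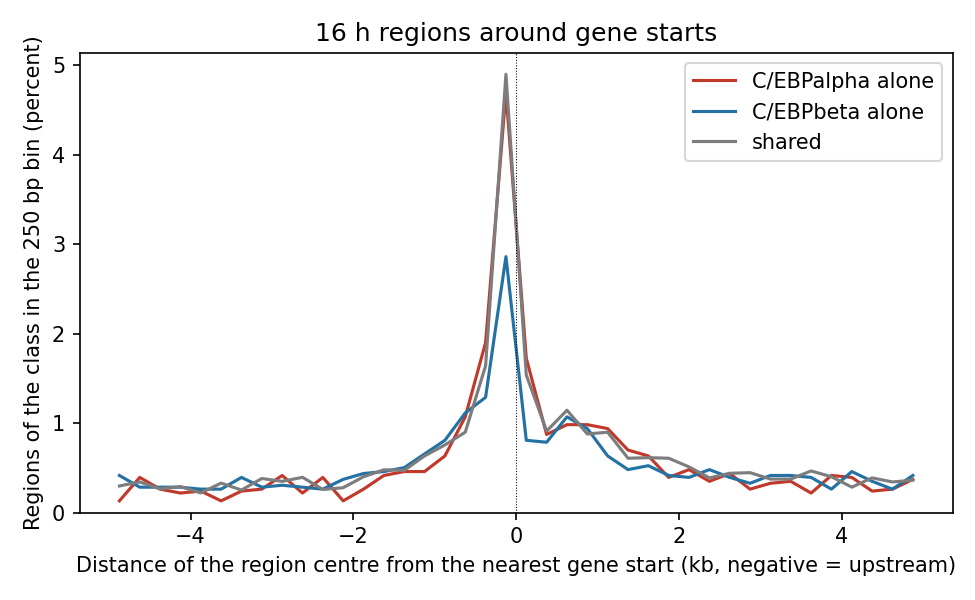
Share of the regions of each class at 16 h in bins of 250 bp (y axis, percent) against distance from the nearest gene start (x axis, kb, negative upstream). C/EBPalpha alone (red) and shared regions (grey) peak in the bin just upstream of the start at 4.69% and 4.90%, and C/EBPbeta alone regions (blue) at 2.86%.

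The other times, cut and classed in the same way, gave no fixed order. C/EBPalpha alone minus C/EBPbeta alone was 1.49 percentage points at 0 h, then -17.9 after 3 h, -5.06 after 8 h and 3.19 after 16 h. It was -1.73 after 24 h, -13.5 after 36 h, 3.11 after 48 h and 3.803 after 168 h. The mean was -3.33 ± 8.28 (SD, n = 8 times), with C/EBPalpha higher at 4 of 8 times (two-sided exact permutation of signs, p = 0.359 and 0.727 after adjustment over 3 tests, smallest possible p 0.00781). The C/EBPbeta alone share was 25.8% at 3 h and 23.6% at 36 h, while the remaining 6 times gave 8.32% to 13.6%. Without those times the mean was 0.80 (exact permutation p = 0.594). The 16 h difference is therefore smaller than the spread between times.

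**Figure D3:**
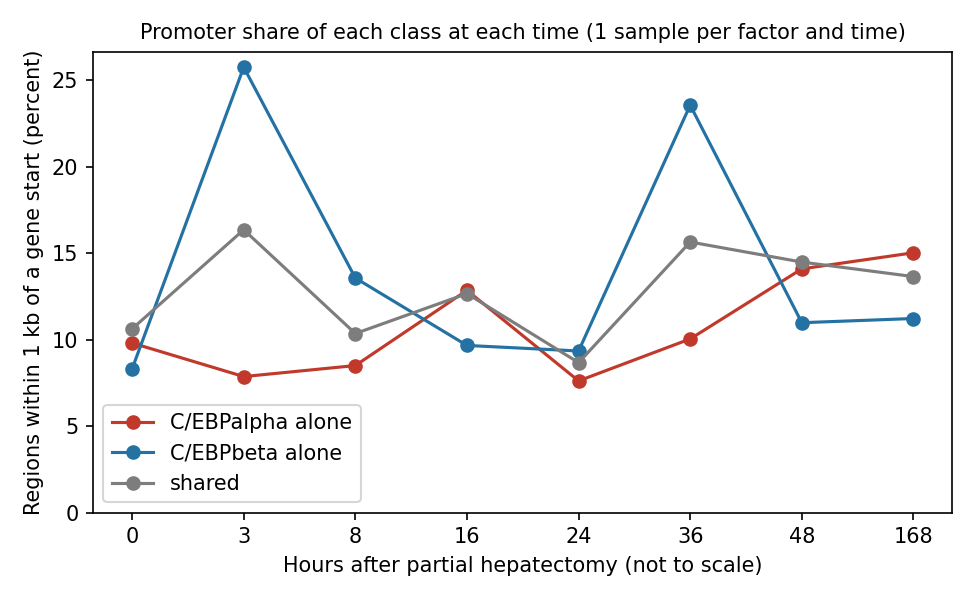
Promoter share, that is regions whose centre is no more than 1 kb from a start (y axis, percent), at each time (x axis, hours, not to scale) for C/EBPalpha alone, C/EBPbeta alone and shared regions, 1 sample per factor and time. C/EBPbeta alone regions stand highest at 3 h (25.8%) and 36 h (23.6%) and lie below C/EBPalpha alone regions at 16 h.

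The lists of other times, which the classing did not use, show whether alone regions came back more often with their own factor. No such difference was detectable. C/EBPalpha alone regions were met in 25.9% to 33.4% by the 7 other C/EBPalpha lists and in 22.5% to 31.5% by the 7 other C/EBPbeta lists. The means were 30.2% and 28.5%, a difference of 1.63 ± 5.29 percentage points (SD, n = 7 times), higher in the C/EBPalpha list at 4 of 7 times (two-sided exact permutation of signs, p = 0.484 and 0.727 after adjustment). C/EBPbeta alone regions were met in 32.6% on average by C/EBPalpha lists and in 31.8% by C/EBPbeta lists. The difference was 0.77 ± 7.23 points, higher in the C/EBPalpha list at 3 of 7 times (exact permutation p = 0.8125, adjusted 0.8125, smallest possible p 0.0156). Its sign turned without the 0 h or the 3 h pair (-0.25 and -1.16), and both differences turned with full lists (-2.01 and -2.74). Shared regions were met in 68.0% and 67.0%. In all 3 classes the C/EBPalpha lists of 0 and 3 h met more regions than the C/EBPbeta lists of those times, and at 8 h fewer. The highest value for C/EBPbeta alone regions was 42.8%, in the 8 h C/EBPbeta list, and the next 40.4%, in the 3 h C/EBPalpha list.

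**Figure D4:**
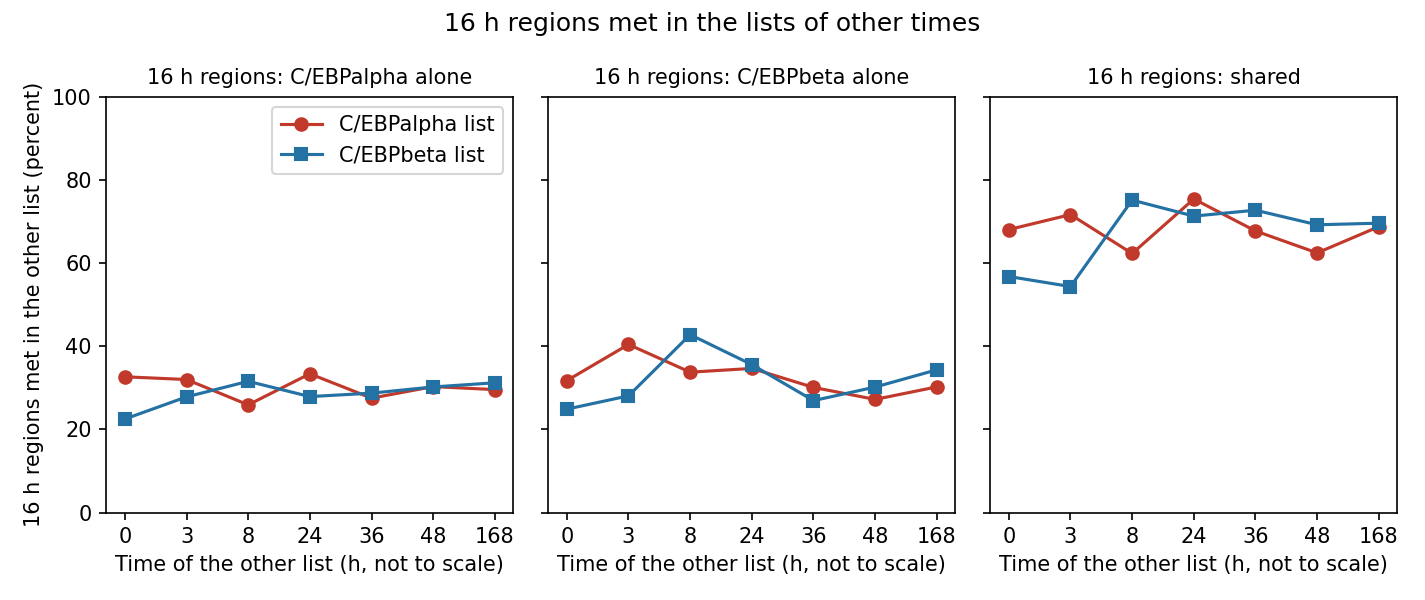
Share of 16 h regions (y axis, percent) met within 100 bp in the list of each other time (x axis, hours), for C/EBPalpha alone, C/EBPbeta alone and shared regions, with C/EBPalpha lists as red circles and C/EBPbeta lists as blue squares. Lines of both factors cross in every panel, near 30% for the alone classes and near 68% for shared regions.

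Single regions were followed as well. Of the 4581 C/EBPalpha alone regions, 60.6% were met in at least 1 list of each factor at other times, and of the C/EBPbeta alone regions 65.9%, against 93.6% of shared regions. No other list held 17.4% of C/EBPalpha alone, 16.4% of C/EBPbeta alone and 1.71% of shared regions. Among regions ranked below 10000 these shares were 18.6%, 17.8% and 3.90%. Shared regions of those ranks were met in 51.4% on average by C/EBPalpha lists and in 49.5% by C/EBPbeta lists. Regions that came back in at least 3 lists of a single factor were few. Among C/EBPalpha alone regions 52 (1.14%) did so with C/EBPalpha and 33 with C/EBPbeta. Among C/EBPbeta alone regions 29 did so with C/EBPalpha and 30 (0.655%) with C/EBPbeta. Among regions with no partner within 1000 bp the mean shares were 20.1% and 19.8% for C/EBPalpha alone and 21.8% and 21.5% for C/EBPbeta alone, in the lists of C/EBPalpha and of C/EBPbeta.

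Egr1, a zinc finger factor of the immediate early response, was measured at 36 h only. Its peaks overlapped 11.1% of C/EBPalpha alone (10.19% to 12.01%), 12.1% of C/EBPbeta alone (11.2% to 13.0%) and 21.8% of shared regions (21.1% to 22.4%, Wilson intervals). Within 1 kb of a gene start the shares were lower, at 4.58%, 6.55% and 7.90%. The intervals of the alone classes overlap in both places.

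The genes nearest to alone regions were largely genes that also had shared regions. C/EBPalpha alone regions named 3474 nearest genes and C/EBPbeta alone regions 3428, of 20933 measured. Of these, 65.3% and 66.8% were also nearest to a shared region, against 36.2% (7573) of all measured genes. The gene sets of the alone classes had 1457 genes in common, 41.9% of the C/EBPalpha and 42.5% of the C/EBPbeta set. Of all measured genes, 16.4% were in the C/EBPbeta set and 16.6% in the C/EBPalpha set. Nearest to C/EBPalpha alone regions and to no other class were 895 of the 20933 measured genes, and to C/EBPbeta alone regions 826.

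Among genes near a single class, Pol II signal over gene bodies was highest at shared regions. It is a signed signal per bp, with libraries brought to 1 scale over 1472 genes. Of the genes with a start within 1 kb of 1 class only, 29.8% of 487 genes at C/EBPalpha alone regions had a 16 h signal above 0.5, 30.3% of 333 at C/EBPbeta alone regions and 37.1% of 1953 at shared regions, against 16.9% of all measured genes. Their medians were 0.0695, 0.0932 and 0.198 signal units per bp, and that of all measured genes was -0.0671. The 186 genes near more than 1 class, 96 of them with both alone classes and no shared region, were higher still, with a median of 0.286 and 40.3% above 0.5. Within 10 kb the medians were -0.0414 (95% binomial interval -0.0647 to -0.00827, 756 genes) for C/EBPalpha alone, 0.0108 (-0.0208 to 0.0561, 687 genes) for C/EBPbeta alone and 0.101 (3825 genes) for shared regions, against 0.374 for 1483 genes near more than 1 class. The intervals of the alone classes overlap. Their medians differed by -0.0522, and the far ends of both intervals put this between -0.121 and 0.0125, a range wider than a 95% interval. With full lists they do not overlap: the medians were -0.0538 (-0.0720 to -0.0368) for C/EBPalpha alone and -0.00105 (-0.0336 to 0.0298) for C/EBPbeta alone. At 16 h 59.5% of measured genes were below 0. Fewer cells with Pol II on a gene and less Pol II per cell cannot be told apart in whole tissue.

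The change of Pol II at 16 h against 0 h, on the log2 scale after adding 0.5, had a median of -0.15 for the 210 genes at C/EBPalpha alone regions within 10 kb that were above 0.5 at either time. It was 0.01 for 220 genes at C/EBPbeta alone regions, -0.05 for 1478 at shared regions and -0.09 for all 4507. Genes higher by 1 or more made up 10.95%, 19.5% and 18.3% of these classes, against a background of 17.0%. Genes lower by 1 or more made up 17.1%, 14.1% and 15.7%, against 19.1%. Within 1 kb the medians were 0.000178, 0.0691 and -0.0012, with 14.7%, 18.5% and 18.3% of genes higher. The lower genes there were 13.0%, 14.3% and 13.9%, so the order of the alone classes in lower genes was not that of 10 kb. These are values of 1 library per time with no test. Without rescaling, which shifts 16 h against 0 h by -0.32, the medians were 0.15, 0.30 and 0.26.

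C/EBP elements were counted in the promoters of 9830 measured genes with 1 entry in the RefSeq table, of 20933. A match to any of the 4 forms was in 50.8% of 120 promoters with a C/EBPalpha alone region (Wilson interval 42.0% to 59.6%), in 47.6% of 82 with a C/EBPbeta alone region (37.1% to 58.2%) and in 64.0% of 508 with a shared region (59.7% to 68.0%), against 29.1% of all 9830. A match within 30 bp of the region's centre was in 12.5%, 15.9% and 28.1%. The first form alone, TTNNGCAA, was in 10.8% of C/EBPalpha alone, 24.4% of C/EBPbeta alone and 27.2% of shared promoters, against 9.18% of all. Its intervals for the alone classes, 6.44% to 17.7% and 16.4% to 34.7%, overlap only between 16.4% and 17.7%. That overlap does not show equal shares, and the difference was not tested. TGATGCAA, the joint element of C/EBP and ATF factors and a case of the third form, was in 3.54% of shared promoters against 0.722% of all. The CCAAT box, searched as CCAAT, was in 45.0%, 45.1% and 46.5% of the classes and 39.0% of all, and the GC box, searched as GGGCGG, in 60.8%, 43.9% and 58.7% and 54.6% of all. Both strands were searched. Median GC content was 61.2%, 58.2% and 59.7%, and 58.7% over all.

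The 24 chosen gene lists read next were not only of liver pathways. They also held cell cycle, ribosomal, proteasome and immediate early genes and cell type markers, and 384 of their genes were measured. A shared region lay within 1 kb of the start of 28.9% of these genes, against 9.76% of all measured genes. Any C/EBPalpha alone region lay as close to 3.05% of all measured genes and any C/EBPbeta alone region to 2.23%. A C/EBPalpha alone region and no shared one lay there for 29 genes (7.55%, background 2.79%), and a C/EBPbeta alone region and no shared one for 21 (5.47%, background 2.05%). Within 10 kb the order turned, with 20 genes (5.21%, background 4.68%) for C/EBPalpha alone and 29 (7.55%, background 4.35%) for C/EBPbeta alone. Of all measured genes 8.32% and 7.88% had such a region within 10 kb, shared or not.

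**Figure D5:**
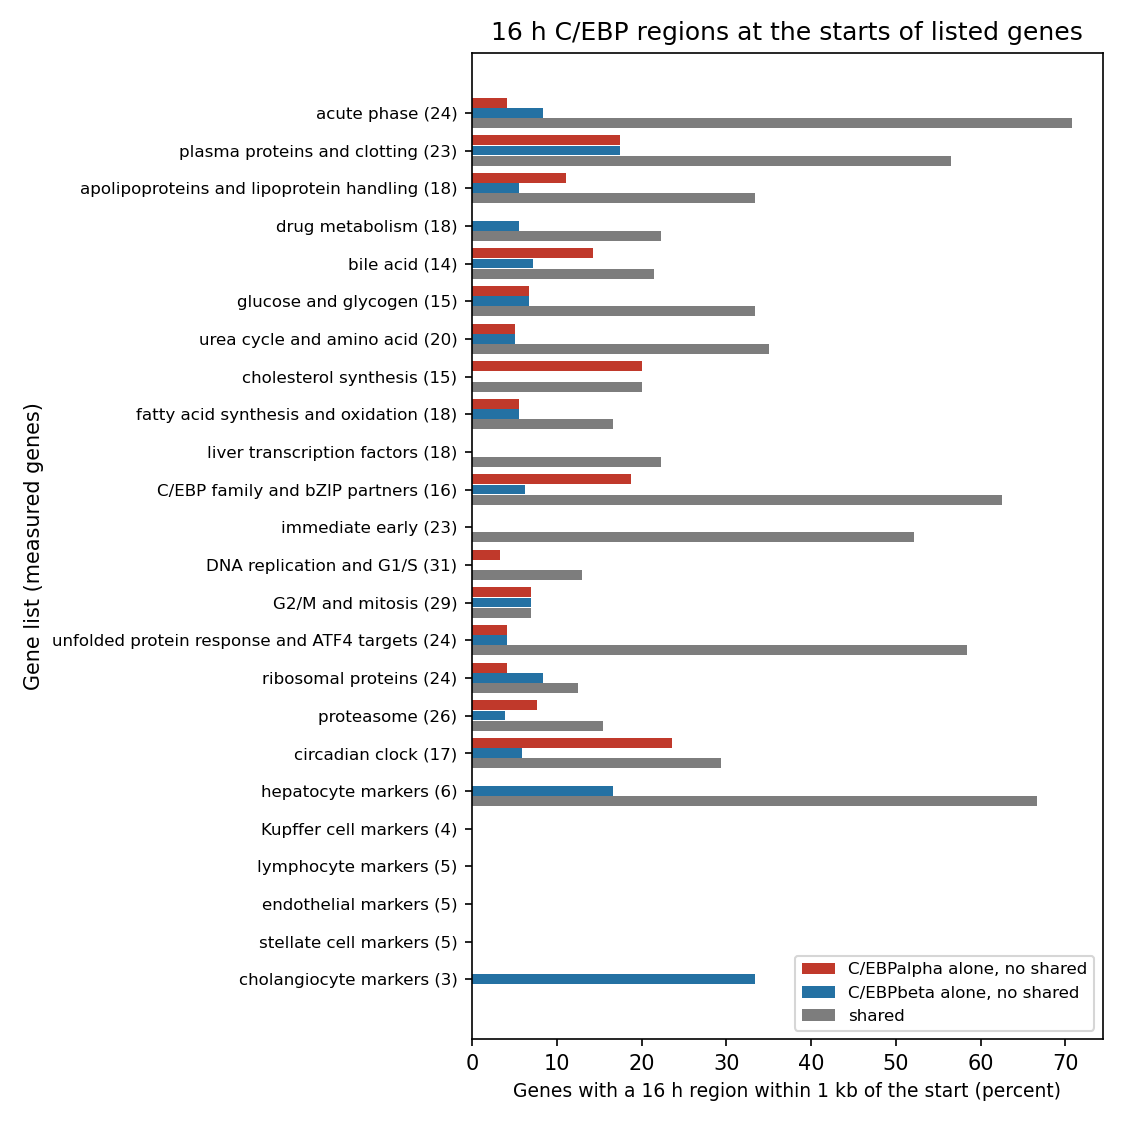
Share of the measured genes of each list (y axis, with the number measured) that had a 16 h region within 1 kb of the start (x axis, percent): C/EBPalpha alone and no shared region in red, C/EBPbeta alone and no shared region in blue, shared in grey. Shared regions lead in the acute phase list (17 of 24 genes), and C/EBPalpha alone regions have their largest share in the circadian clock list (4 of 17).

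Acute phase genes were met by both factors. Of 24 measured, 17 had a shared region within 1 kb and 23 within 10 kb, against 9.76% and 24.3% of all measured genes. Haptoglobin (Hp, 162 bp), Lrg1 (59 bp), Fga (153 bp) and Fgg (389 bp) were among the 8 genes of highest Pol II at shared regions alone. Pol II over Hp was 165 units at 16 h and 34.1 at 0 h, Lrg1 122 and 14.9, Fga 87.0 and 8.59, and Fgg 72.5 and 9.28. The other 4 were Apoa1, with 242 and 305 units, Pck1 with 239 and 216, Gadd45g with 99.0 and 9.22, and D830050J10Rik with 91.1 and 71.0. Apoa1, which encodes the main protein of high-density lipoprotein, had only a weak shared region 766 bp from its start (score 12). Pck1, the gluconeogenic enzyme, and Gadd45g, a growth arrest and DNA damage gene, had regions 290 and 99 bp from theirs.

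In 2 acute phase genes the factors stood apart. Ceruloplasmin (Cp), the plasma copper carrier, had a C/EBPalpha region on its start and a C/EBPbeta region 130 bp downstream, each with a score of 52, and Pol II of 3.9997 at 16 h and 0.211 at 0 h. Saa3, a serum amyloid gene, had a weak C/EBPbeta region 1 bp from its start (score 11) and Pol II near 0 at both times, -0.0059 and -0.682. Among the plasma protein genes named here, only C3 showed the same side-by-side form. C3, the central complement component, had its C/EBPalpha region at chr17:57367774-57367805, score 34, and its C/EBPbeta region at chr17:57367606-57367712, score 32, 130 bp apart. Pol II over C3 was 50.5 at 16 h and 9.90 at 0 h. The C/EBPbeta position was met in 7 C/EBPalpha and 5 C/EBPbeta lists of other times and the C/EBPalpha position in none. Rbp4, the retinol carrier, had C/EBPalpha 179 bp and C/EBPbeta 704 bp upstream, and F10, coagulation factor X, 37 bp and 697 bp upstream. Serpinc1 (antithrombin) had a C/EBPalpha alone region, and Ttr (transthyretin) a C/EBPbeta alone region 955 bp upstream. Serpinc1 had a C/EBPbeta region 4 bp away that was under the score limit.

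The list of C/EBP genes, other zipper genes and Trib genes was met mostly by shared regions. These lay within 1 kb of the start in 10 of 16 genes, against 9.76% of all measured genes. Of the measured Cebp genes, Cebpa and Cebpz had a shared region within 1 kb, and Cebpb, Cebpg and Cebpe had none. That of Cebpa lay 215 bp from its start, and Pol II over the gene was 9.02 at 16 h and 93.2 at 0 h. Cebpb had a C/EBPalpha alone region 316 bp upstream, at chr2:167514139-167514165 with a score of 12, and the nearest shared region was 1044 bp from the start. The C/EBPalpha alone region was met in none of the 14 other lists. Pol II over Cebpb was 83.8 at 16 h and 56.5 at 0 h, the highest 16 h value among genes with C/EBPalpha alone regions only within 1 kb. Cebpg, a partner protein without an activation domain, had a C/EBPalpha region 64 bp upstream (score 44) and a C/EBPbeta region 255 bp downstream (score 31). Atf5, a stress-responsive zipper protein gene, had a C/EBPalpha alone region 271 bp upstream (score 14), and Pol II over it was 10.1 at 16 h and 0.522 at 0 h. Atf4 (155 bp), Ddit3 (354 bp), Nfil3 (289 bp) and Atf3 (30 bp) had shared regions.

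The unfolded protein response refolds or removes proteins in the endoplasmic reticulum. Its genes had shared regions within 1 kb in 14 of 24 cases, against 9.76% of all measured genes. Hspa5, its main chaperone, had one 36 bp from its start and Pol II of 16.0 at 16 h and 4.65 at 0 h. The exceptions with alone regions were Dnajb11, with C/EBPalpha 62 bp upstream, and Hsp90b1, with C/EBPbeta 614 bp upstream, and the other factor lay 14 and 73 bp away in the full list. Of the list's 21 genes above 0.5 at either time, 16 were higher by 1 or more at 16 h than at 0 h, against the background of 17.0%.

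Within 1 kb and with no shared region there, C/EBPalpha alone exceeded C/EBPbeta alone by 2 genes or more in 3 lists. These were cholesterol synthesis (3 and 0), the circadian clock (4 and 1) and the list of C/EBP, zipper and Trib genes above (3 and 1). Of all measured genes 2.79% and 2.05% had such regions. Within 10 kb the counts were 1 and 2, 2 and 1, and 0 and 0, so the excess did not hold there, except by 1 gene in the clock list. Sqle, which encodes an enzyme of cholesterol synthesis, and Srebf2, a transcriptional regulator of the pathway, had a C/EBPalpha alone region 215 and 166 bp from the start with scores of 26 and 12. No gene of the cholesterol list had a C/EBPbeta alone region within 1 kb, and 3 of 15 had a shared one, against 9.76% of all measured genes. Sqle had a C/EBPbeta region 20 bp away under the score limit, while for Srebf2 the nearest lay 2786 bp away. Among 17 clock genes, Arntl and Clock, which encode the activators, Cry1, a repressor, and Nr1d2, a nuclear receptor, had C/EBPalpha alone regions and no shared one, with scores of 12, 31, 12 and 12. The other nuclear receptor gene, Nr1d1, had a C/EBPbeta alone region 26 bp from its start (score 14), with Pol II of 0.0704 at 16 h and 32.5 at 0 h. Clock genes follow the hour of the day, and no hour of sampling is given in the labels. Apart from Sqle and Clock these scores are near the lower limit of 10, and with counts of 1 to 4 genes no list was tested.

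Metabolic lists held a few of each class. For C/EBPalpha alone they were Apoc1 (379 bp), Lipc (469 bp), Cyp7b1 (501 bp), the bile salt exporter gene Abcb11 (467 bp) and Fasn, fatty acid synthase (132 bp). For C/EBPbeta alone they were Lcat (616 bp), Cyp2b10 (129 bp), Nr0b2, a repressor of bile acid synthesis (229 bp), and Elovl6 (356 bp). Fbp1, a gluconeogenic enzyme, had C/EBPalpha 405 bp and C/EBPbeta 214 bp upstream. In the full list of the other factor, under the score limit, a region lay 18 bp away at Lipc, 60 bp at Fasn and 96 bp at Elovl6. In the cell cycle lists Rfc4 (26 bp), Bub1b (146 bp) and Ttk (242 bp) had C/EBPalpha alone regions, and Cenpa (183 bp) and Mad2l1 (215 bp) had C/EBPbeta alone regions. Pol II over all 5 lay near 0 at 16 h, between -0.276 and -0.0614. At Bub1b a C/EBPbeta region under the limit lay 16 bp away, and at Cenpa a C/EBPalpha one 5 bp away. Mad2l1 had no C/EBPalpha region within 318011 bp in the full list, and its C/EBPbeta region was met in 4 C/EBPalpha and 6 C/EBPbeta lists of other times. In the ribosomal and proteasome lists Rpl3 (152 bp), Psmd1 (244 bp) and Psmc5 (445 bp) had C/EBPalpha alone regions, with a C/EBPbeta region under the limit 4 bp away at Rpl3 and 59 bp away at Psmc5. Rps19 (664 bp), Rps23 (505 bp) and Psmc5 (925 bp) had C/EBPbeta alone regions.

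Genes of high Pol II with regions of a single alone class within 1 kb had weak regions, as did the alone classes as a whole. Beside Cebpb, Apoc1 and Atf5, the 8 highest genes with C/EBPalpha alone regions only were Tomm40l, with 40.8 units at 16 h and 31.3 at 0 h, EG639281, Pnrc1 (a nuclear receptor coactivator gene), 2310033P09Rik and Agt, which encodes angiotensinogen and had 9.56 and 5.30. Those of C/EBPbeta alone were Vtn (vitronectin, 37.0 and 28.0), Apof (31.6 and 22.2), Spsb2, Ttr, Trabd, Slc26a1, EG629820 and Rhbdl1. The scores of the C/EBPalpha regions ran from 12 to 30 and those of the C/EBPbeta regions from 11 to 20. Over each whole class the lower and upper quartiles were 12 and 19 for C/EBPalpha alone and 12 and 18 for C/EBPbeta alone. Under the score limit, a C/EBPalpha region lay 7 bp away at Spsb2, 8 bp at Trabd, 13 bp at Rhbdl1 and 63 bp at Slc26a1. A C/EBPbeta region under the limit lay 35 bp away at 2310033P09Rik. The other genes named in this paragraph had none within 100 bp.

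The tissue was checked against cell type markers. Of 6 hepatocyte markers 4 had a shared region within 1 kb, against 9.76% of all measured genes. The median Pol II of the 6 markers was 16.5 units per bp at 16 h. None of the 19 markers of Kupffer cells, lymphocytes, endothelial or stellate cells had a region of any class within 1 kb. Nor did 17974 of all 20933 measured genes, so this count says little about those cell types. Within 10 kb a shared region lay at 2 of 5 lymphocyte and 1 of 5 endothelial markers, against 24.3% of all measured genes. Another endothelial marker had a C/EBPbeta alone region. The list medians of these cell types ran from -0.341 to 0.288. Among 3 cholangiocyte markers Sox9 had a C/EBPbeta alone region 476 bp upstream and Pol II of 3.803 at 16 h and -1.13 at 0 h. The other 2 had no region of any class within 1 kb. Of the 3, only 1 was above 0.5 at 16 h, and the list median was -0.388. The share of other cell types in the chromatin was not tested.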

How the data were processed

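The authors deposited region lists for C/EBPalpha and C/EBPbeta with a score from 1 to 1000 scaled within each list (a difference or sum, per the file headers, which also name mm9), Egr1 peaks with a score, and a signed Pol II score per gene row. Gene starts were taken 500 bp before each row by strand, an offset that no label or header states; 6603 of 31804 rows end before they start. Per the submitters' processing notes the tools included Bowtie 0.12.7 and MACS 1.4.1. Controls, filters and batches are not stated there, and depth is unknown, so intervals cover counting of regions only. The mock sample was not analysed here.

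Regions were ranked by score, ties by chromosome and start, cut to 20061 and matched by centres in Python 3.11.15 (numpy 2.4.6, scipy 1.17.1). Bedtools 2.31.1 gave the same overlap count as the matching code, which was also tested on simulated data. Of the gene rows, 20933 with a unique name on a nuclear chromosome and a body of at least 500 bp were measured. Pol II was divided by width, rescaled by median ratios (1472 genes), set to 0 where negative, and 0.5 added before log2. Sign-flip tests over times were exact, with Benjamini-Hochberg adjustment over 3 tests.

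Named genes are, per class, the nearest genes of the 8 highest-scoring regions, the 8 genes with the highest 16 h Pol II within 1 kb of that class only, and list members at an alone region and no shared one; some of these are not reported here. Members and lists were chosen with earlier results of these data known. Regions with no partner within 1000 bp, other family and pathway members and marker genes were added after their values were seen. The alternatives tried were other distances, list lengths, tie orders, pseudocounts, filters and left-out times.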

Additional observations from a re-analysis of the deposited data

Results flagged for a closer look

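The promoter share difference between alone classes, 3.19 percentage points at 16 h, had the opposite sign at 4 other times, with counting intervals that exclude 0. It was -17.9 at 3 h and -5.06 at 8 h. Later it was -1.73 at 24 h and -13.5 at 36 h. Each time has 1 sample per factor, so the difference between times was not tested.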

How the results depend on the processing

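The share of C/EBPalpha regions met by C/EBPbeta was 69.6% with centres within 50 bp, 79.4% with a wider distance, 61.7% by overlap, 76.3% with full lists and 79.3% with the top 10000, and kept its value with ties reversed. The 16 h promoter difference between the alone classes stayed within its counting interval under all 12 alternatives, from 1.92 to 4.15 percentage points. Over times, the mean promoter difference ran from -4.35 to -1.25 with each time left out, and was 0.80 without 3 h and 36 h, an alternative chosen after seeing the data. The recurrence difference ran from 0.207 to 2.84 for C/EBPalpha alone and from -1.16 to 2.40 for C/EBPbeta alone with each time left out, and was -2.01 and -2.74 with full lists; the cause was not tested. No such test passed 0.05 in any setting. Within 50 kb, 13 listed genes (3.39%, background 6.32%) had a C/EBPalpha alone region and no shared one, against 20 within 10 kb, and 23 (5.99%, background 6.01%) a C/EBPbeta alone one. The alone classes' difference in median Pol II was -0.0522 (-0.121 to 0.0125), and with full lists -0.0527 with an interval that excludes 0 (-0.102 to -0.00324); their difference in Pol II change stayed within its interval. No paired analysis was possible because no group had replicate numbers to block on; the tests over times compare the factors time by time. Unknown depth limits every statement that a region is alone: the other factor may lie below its list's limit.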

Other observations

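Some genes gathered many regions. Trib1, which encodes a pseudokinase that targets C/EBPalpha for degradation, was the nearest gene of 25 shared and 8 C/EBPbeta alone regions at 16 h, the most of any measured gene in both classes. Bcl6, a transcriptional repressor gene, was the nearest gene of 9 C/EBPalpha alone regions, the most in that class.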
